A study of Mus musculus with 6 samples.

Results

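The Btg and Tob genes encode a family of antiproliferative proteins, and their transcripts were followed in mouse 4-cell embryos that had developed through a reversible block of transcription. The series holds 6 RNA libraries in 2 groups of 3. DRB embryos were exposed as zygotes to 20 µM 5,6-dichloro-1-β-D-ribofuranosylbenzimidazole (DRB), a nucleoside analogue that stops RNA polymerase II elongation by inhibiting the kinase CDK9, from 6 h after fertilization for 20 h, and were then washed and grown for 26 h without it. Con embryos form the control group and were collected at the same stage. The labels state neither a vehicle nor culture times for Con, and the strain, the embryos per library and the origin of the replicates are not given there. The members, Tob1, Tob2, Btg1, Btg2, Btg3 and Btg4, were chosen by gene symbol, 6 of 55335 genes listed. The family itself was picked with the DRB and Con values of these libraries known, so the values of its members are given as a description and support no test of the family. All 6 passed the filter on low values, at least 1 FPKM (fragments scaled to transcript length and library total) in at least 3 libraries, as did 11893 genes in all.

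Members of the family share an N-terminal domain that binds the deadenylase subunits Cnot7 and Cnot8 of the CCR4-NOT complex, which shortens the poly(A) tails of mRNAs and so starts their decay. Tob1 and Tob2 also bind cytoplasmic poly(A)-binding protein through a C-terminal extension. In somatic cells several members are linked to growth arrest, and Btg2 is a classical target of p53. Btg4 is the oocyte member, required in mouse for the clearance of maternal mRNAs around the first cleavage.

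The libraries held an estimated 22000000 to 25300000 fragments, with similar depth in DRB and Con. Between libraries, Pearson's r of log2(FPKM + 1) over all genes was 0.949 to 0.959 within DRB, 0.965 to 0.968 within Con and 0.935 to 0.953 between the groups. Mitochondrial genes took 23.9% to 26.4% of all FPKM in DRB libraries and 12.2% to 19.96% in Con libraries. FPKM is scaled to the library total, so this share lowers the values of nuclear genes in DRB. The median log2 difference of all tested genes was -0.093, and with mitochondrial genes left out it shifted by 0.11. Embryo transcripts were present in all libraries, with Dppa3 at 13434 to 24780 FPKM in DRB and 14608 to 22323 FPKM in Con. Cdx2, a marker of the later trophectoderm, was listed at 0 in all 6.

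Tob1 (ENSMUSG00000037573.5, chromosome 11, 94211454 to 94215495, plus strand, GRCm38) differed most. It stood at 34.2, 40.7 and 51.8 FPKM in DRB replicates 1 to 3, against 2.74, 4.30 and 6.60 FPKM in Con replicates 1 to 3. The groups were far apart, and the lowest DRB library was 5.18 times the highest Con library. The mean was 42.2 ± 8.88 FPKM in DRB and 4.55 ± 1.94 FPKM in Con (SD, n = 3 each), a ratio of 9.28. The log2 difference of FPKM + 1, DRB minus Con, was 3.00 ± 0.38 (limma's moderated SE), which understates changes of low values. With a pseudocount of 0.1 it was 3.25. Tob1 has 1 annotated transcript, so its values can be turned into fragments, about 1695, 1988 and 2786 in DRB and 135, 215 and 309 in Con. By these fragment numbers alone, counting error would be small beside the spread between libraries. The RNA was amplified, so fragments may be copies of fewer molecules, whose number is not known. By mean FPKM, Tob1 lay at percentile 81.1 of all tested genes in DRB and 38.6 in Con. By log2 difference it ranked 59th of the 11893. In bulk libraries, fewer cells that carry a transcript and less of it per cell cannot be told apart. Of 11 embryo and oocyte genes looked at, 3 separated the groups, in either direction, and are given for that reason. Over all tested genes, 9.85% had every DRB library above every Con library, and the share below was not computed. Nothing is read from this count. Zfp352, a gene of the 2-cell stage, was higher in every DRB library, at 36.9 to 55.0 FPKM in DRB and 2.03 to 7.69 FPKM in Con. Nanog, a pluripotency gene, was lower in every DRB library, at 3.04 to 6.99 FPKM in DRB and 11.4 to 16.8 FPKM in Con. Zp3, an egg coat gene, was lower in every DRB library, at 22.2 to 36.4 FPKM in DRB and 39.3 to 42.1 FPKM in Con. Dppa3, Pou5f1, Oog1, Gdf9, Bmp15, Nlrp5 and Sox2 overlapped between the groups. Of these, Sox2 was near the floor at 0 to 0.07 FPKM in both groups. Pou5f1 stood at 0 to 0.15 FPKM in DRB and 0.11 to 3.58 FPKM in Con. The part of any of these in the Tob1 result was not tested.

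**Figure D1:**
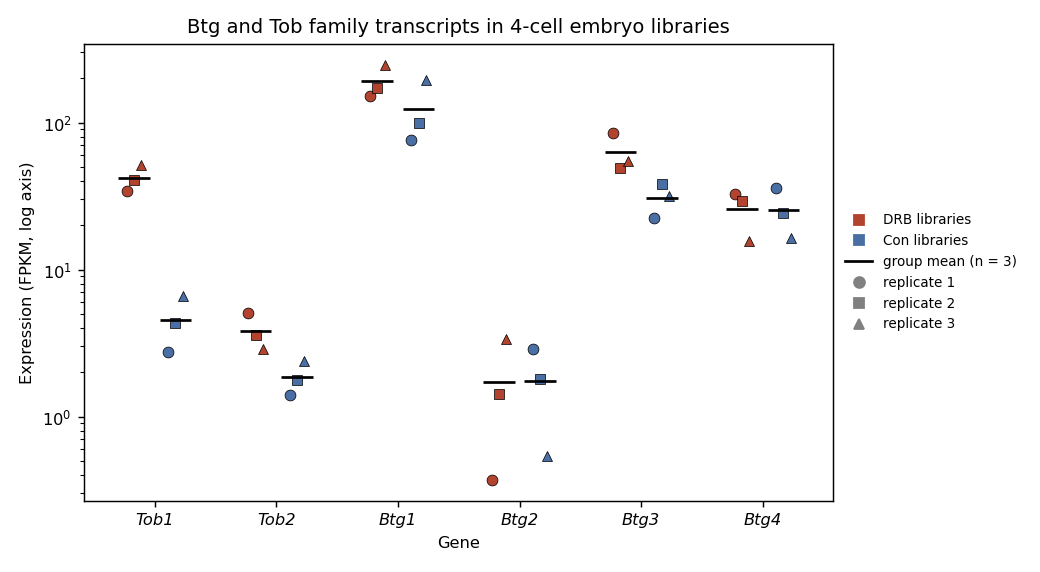
FPKM of the 6 family members on a log axis, with 1 point per library, DRB to the left of Con for each gene, symbols for the replicate number and a bar at the group mean (n = 3). Tob1 stands at 34.2 to 51.8 FPKM in DRB and 2.74 to 6.60 FPKM in Con, while Btg4 and Btg2 overlap between the groups.

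Tob2 (ENSMUSG00000048546.8, chromosome 15, 81848272 to 81858796, minus strand), the paralog of Tob1, was far less abundant. It stood at 5.04, 3.58 and 2.86 FPKM in DRB and 1.40, 1.77 and 2.40 FPKM in Con. All DRB libraries lay above all Con libraries, but the nearest were only 1.19 times apart. The means were 3.83 ± 1.11 FPKM in DRB and 1.86 ± 0.506 FPKM in Con (SD, n = 3 each), with a log2 difference of 0.75 ± 0.41 (SE). With the smaller pseudocount it was 1.00.

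Btg1 (ENSMUSG00000036478.8, chromosome 10, 96617006 to 96622809, plus strand), a member tied to cell quiescence, was the most abundant. It stood at 152.1, 172.7 and 247.4 FPKM in DRB and 76.6, 99.8 and 194.0 FPKM in Con. The groups overlapped, because Con replicate 3 exceeded DRB replicates 1 and 2. The log2 difference was 0.71 ± 0.36 (SE), and it was 1.09 without Con replicate 3 and 0.42 without Con replicate 1. Genes named Btg1-ps1 and Btg1-ps2, on chromosome X, were listed at 0 in all 6 libraries, and reads that fit them equally well could have been assigned to Btg1 or dropped.

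Btg2 (ENSMUSG00000020423.6, chromosome 1, 134075170 to 134079120, minus strand), the closest relative of Btg1, was the member with the lowest mean in each group. It stood at 0.37, 1.43 and 3.39 FPKM in DRB and 2.86, 1.81 and 0.54 FPKM in Con, or about 22, 85 and 222 fragments in DRB and 172, 110 and 31 in Con. Both groups spread widely, 9.16-fold in DRB and 5.30-fold in Con, and overlapped. The means were nearly equal, 1.73 ± 1.53 FPKM in DRB and 1.74 ± 1.16 FPKM in Con (SD, n = 3 each). The log2 difference was -0.06 ± 0.53 (SE) and turned to 0.03 with median-of-ratios scaling.

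Btg3 (ENSMUSG00000022863.15, chromosome 16, 78332637 to 78377192, minus strand) encodes a member best known as a candidate tumour suppressor. It stood at 84.8, 49.1 and 54.7 FPKM in DRB and 22.3, 38.5 and 31.8 FPKM in Con. All DRB libraries lay above all Con libraries, the nearest 1.28 times apart. The means were 62.9 ± 19.2 FPKM in DRB and 30.9 ± 8.11 FPKM in Con (SD, n = 3 each), with a log2 difference of 1.00 ± 0.33 (SE). Cxadr, a virus receptor and junction protein gene, lies on the opposite strand. Its annotated span, introns included, overlaps that of Btg3 by 27138 bases, and the overlap of exons was not computed. Cxadr had 23.4, 29.1 and 28.6 FPKM in DRB and 22.7, 21.4 and 19.4 FPKM in Con. The sources used here do not say that strand was used, so reads of any shared exons may be counted for either gene.

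Btg4 (ENSMUSG00000032056.10, chromosome 9, 51060901 to 51119875, plus strand), the maternal member, had nearly the same mean in both groups. It stood at 32.6, 29.1 and 15.6 FPKM in DRB and 35.9, 24.1 and 16.4 FPKM in Con. No DRB library exceeded the highest Con library, and the groups covered almost the same range. The log2 difference was 0.02 ± 0.40 (SE), within 1 SE of 0. It lay between -0.25 and 0.33 when 1 library was left out. The annotation places Layn, 4833427G06Rik and the microRNA genes Mir34b and Mir34c on the other strand of the Btg4 gene, and all of them were listed at 0 in the 6 libraries. Mir34b and Mir34c overlap Btg4 by only 84 and 77 bases, and libraries primed with oligo-dT may miss such short genes. Their 0 is not read as absence.

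**Figure D2:**
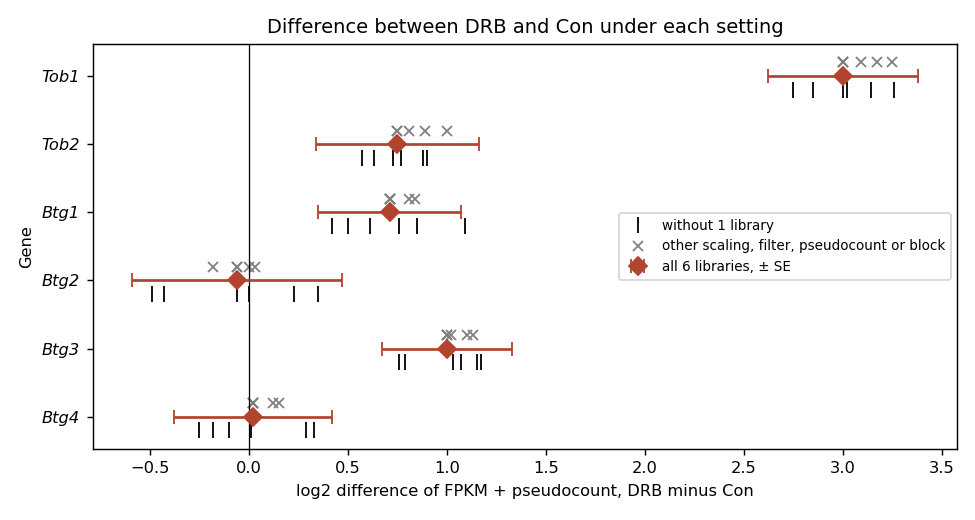
Log2 difference of each member, DRB minus Con: diamonds show the value over all 6 libraries with its SE, ticks the 6 fits without 1 library, and crosses other scalings, filters, pseudocount or the replicate block. Tob1 lies between 2.75 and 3.26 throughout, and Btg2 and Btg4 fall on both sides of 0.

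In the fit across all genes, 2.48% of the 11893 genes passed a limma adjusted p below 0.05, of which 1.53% of all genes were higher and 0.95% lower in DRB. Of the 6 members 1 passed, Tob1 (limma adjusted p = 0.00387), and the other 5 had adjusted p from 0.142 for Btg3 to 0.987 for Btg4. Tob1 passed in 11 of 12 alternative fits, including all 6 without 1 library (adjusted p 0.00649 to 0.0248). In 1 of the 11, with a minimum of 5 FPKM, Tob1 reached that level in Con only in replicate 3. It thus passed that filter only with DRB, and that call is not read as support. Tob1 missed only with no filter on low values, where adjusted p was 0.0969 over 27554 genes. All DRB libraries lay above all Con libraries for 3 of the 6 members, Tob1, Tob2 and Btg3, against 9.85% of all tested genes. The family had 5 positive log2 differences and a median of 0.73, beside 44% positive and a median of -0.093 over all genes. Nothing is read from these counts, because the family was picked with this contrast known. Among all called genes 61.7% were higher in DRB, a share of 72.6% with median-of-ratios scaling and 72.2% with mitochondrial genes left out.

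The order of the members by mean FPKM, a unit that corrects for transcript length, was not the same in the groups. In DRB it ran Btg1, Btg3, Tob1, Btg4, Tob2 and Btg2, and in Con Btg1, Btg3, Btg4, Tob1, Tob2 and Btg2. Btg1 stood clear of the next member in each group. In DRB the ranges of Btg3 and Tob1 overlapped, in Con those of Btg3 and Btg4, and those of Tob2 and Btg2 in both. Tob1 lay above Btg4 in every DRB library and below it in every Con library. Its share of the family's summed FPKM was 12.8% ± 1.55 in DRB and 2.36% ± 0.374 in Con (SD, n = 3 each), while Btg1 took 57.8% ± 8.33 in DRB and 63.2% ± 12.2 in Con.

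Ratios between members within a library do not depend on how libraries are scaled against each other. Tob1 over Tob2 was 6.78, 11.4 and 18.1 in DRB and 1.96, 2.43 and 2.75 in Con. Tob1 over Btg4 was 1.05, 1.40 and 3.33 in DRB and 0.0763, 0.179 and 0.402 in Con. Neither ratio overlapped between the groups. Btg1 over Tob1 was the steadiest ratio within a group, at 4.45, 4.25 and 4.78 in DRB and 27.9, 23.2 and 29.4 in Con. Tob1 and Btg1 thus differed between replicates by similar factors, with their highest value in replicate 3 of each group and their lowest in replicate 1. Btg4 had the reverse, highest in replicate 1 and lowest in replicate 3 of each group. These ratios were picked after the values were seen.

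**Figure D3:**
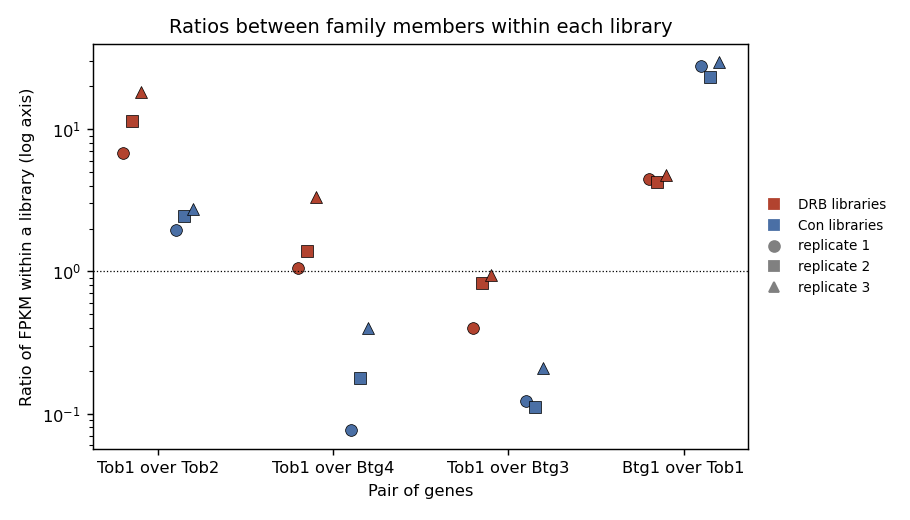
Ratios of FPKM between pairs of members within each library on a log axis, DRB to the left of Con for each pair, with symbols for the replicate number and a dotted line at 1. Tob1 over Tob2, Tob1 over Btg4 and Tob1 over Btg3 are higher in DRB, and Btg1 over Tob1 is 4.25 to 4.78 in DRB and 23.2 to 29.4 in Con.

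The promoter windows of 4 members are shown because they set Tob1 beside its paralog Tob2, the most abundant member Btg1 and the maternal member Btg4. Each runs 5′ to 3′ along the gene's strand from 250 bases before to 50 after the RefSeq start (GRCm38.p6), and capitals mark the TATA box with the letters TATAAA, the CCAAT box, and the core of the cAMP response element with the letters TGACG, on either strand. The windows are chr11:94211204-94211503 (plus) for Tob1, chr15:81858277-81858576 (minus) for Tob2, chr10:96616751-96617050 (plus) for Btg1 and chr9:51115751-51116050 (plus) for Btg4. The RefSeq start of Btg4 is that of the GENCODE transcript whose untranslated region is described here, and other transcripts of the gene start further upstream.
Tob1: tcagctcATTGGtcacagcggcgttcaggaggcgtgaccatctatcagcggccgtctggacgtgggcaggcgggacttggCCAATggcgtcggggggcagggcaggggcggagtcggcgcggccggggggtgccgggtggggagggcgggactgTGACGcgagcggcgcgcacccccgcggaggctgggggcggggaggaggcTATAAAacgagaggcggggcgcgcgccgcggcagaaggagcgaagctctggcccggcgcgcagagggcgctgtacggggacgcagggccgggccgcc
Tob2: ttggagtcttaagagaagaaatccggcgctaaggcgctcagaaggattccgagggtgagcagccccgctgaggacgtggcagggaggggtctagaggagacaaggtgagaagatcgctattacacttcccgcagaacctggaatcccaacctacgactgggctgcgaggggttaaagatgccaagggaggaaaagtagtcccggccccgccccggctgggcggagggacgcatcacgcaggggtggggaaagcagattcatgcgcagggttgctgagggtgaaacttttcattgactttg
Btg1: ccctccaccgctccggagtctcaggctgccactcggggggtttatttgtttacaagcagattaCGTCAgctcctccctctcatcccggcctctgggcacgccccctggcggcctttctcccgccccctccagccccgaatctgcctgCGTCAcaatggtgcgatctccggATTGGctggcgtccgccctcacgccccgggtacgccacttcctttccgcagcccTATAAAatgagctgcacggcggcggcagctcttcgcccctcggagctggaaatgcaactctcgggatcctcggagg
Btg4: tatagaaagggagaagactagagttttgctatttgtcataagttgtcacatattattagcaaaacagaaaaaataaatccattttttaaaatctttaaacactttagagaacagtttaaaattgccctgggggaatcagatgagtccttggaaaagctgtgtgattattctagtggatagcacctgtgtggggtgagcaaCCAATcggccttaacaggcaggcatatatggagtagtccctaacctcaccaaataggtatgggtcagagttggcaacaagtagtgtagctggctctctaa

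The windows of Tob1, Btg1 and Btg2 had TGACG, with 1, 2 and 2 matches, and those of Tob2, Btg3 and Btg4 had none. Of 32851 windows of this length in the table, 20.8% held it. The Btg2 matches overlap on opposite strands. TATAAA was in the windows of Tob1, at -47, and Btg1, at -26 from the start, against 13.6% of all windows. CCAAT was in all but the Tob2 window, with 2 matches in Tob1 and Btg2, against 37.4%. GGGCGG, an Sp1 box left in lower case above, was in all but the Btg4 window and the upstream of the 2 Btg3 windows, against 35.7%, and the AP-1 motif TGANTCA and the p53 response element decamer were in none (7.81% and 8.36% of all windows). The Tob1 window was 75.3% GC with 40 CpG, and the Btg4 window 39% GC with 1 CpG, against medians of 52.7% and 7 over all windows. These matches describe letters in the windows and are no evidence of binding.

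The 3′ untranslated regions, taken from the longest complete coding transcript in GENCODE M21, differed in length and in AU-rich content. That of Tob1 is 767 bases, Tob2 2457, Btg1 4166, Btg2 2199, Btg3 439 and Btg4 521, beside a median of 1082.5 over 8828 tested genes. The pentamer ATTTA, the core of AU-rich decay elements, occurred 3 times in Tob1, or 3.91 per kb (percentile 87.6 of those genes). Btg3 and Btg4 were denser, with 4 matches each, 9.11 and 7.68 per kb (percentiles 99 and 98.2). TTTTAT, the cytoplasmic polyadenylation element of maternal mRNAs, occurred 3 times in Btg4, or 5.76 per kb (percentile 98.1), 2 times in Btg3 and Tob2, 4 times in Btg1 and 1 time in Tob1 and Btg2. The Pumilio motif TGTANATA was found only in Btg1, with 2 matches, against 26.4% of genes with at least 1. The Tob1 ATTTA sites and the Btg4 TTTTAT sites are shown with 10 bases on each side, written as DNA with the motif in capitals, since they contrast the member that differed most with the maternal one. The later pair of Tob1 sites adjoin.
Tob1, base 244 of the region: ctcttacagtATTTAagatatagca
Tob1, base 334 of the region: taattgtataATTTAatttagtaca
Tob1, base 339 of the region: gtataatttaATTTAgtacaaagtt
Btg4, base 134 of the region: ttatgtaaaaTTTTATgaacactagt
Btg4, base 406 of the region: aaccagtctaTTTTATaaatctgtta
Btg4, base 455 of the region: ataaatccctTTTTATgtctttttaa

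The proteins deduced from these transcripts have 362 residues for Tob1, 345 for Tob2, 171 for Btg1, 158 for Btg2, 252 for Btg3 and 250 for Btg4. In local alignments Tob1 and Tob2 shared 66% of 309 aligned residues, Btg1 and Btg2 68.5% of 149, and Btg3 and Btg4 46.8% of 231. Between members of different pairs identity was 32.7% to 46.4%. Within these pairs of closest relatives the log2 difference was 3.00 for Tob1 and 0.75 for Tob2, 0.71 for Btg1 and -0.06 for Btg2, and 1.00 for Btg3 and 0.02 for Btg4. Whether the members of a pair differed from each other was not tested. Tob1, Tob2, Btg1 and Btg2 have 2 exons each in these transcripts and Btg3 and Btg4 have 5.

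For each member the 2 protein-coding genes with the most similar profile were sought among 9419, as the root mean square distance of log2(FPKM + 1) after centring each gene on its mean over the 6 libraries. The nearest to Tob1 were Pglyrp1, a peptidoglycan recognition protein gene, at 0.459, and Calml4, a calmodulin-like gene, at 0.463. Pglyrp1 averaged 66.9 FPKM in DRB and 11.3 in Con, and Calml4 32.2 FPKM in DRB and 1.98 in Con. Profiles were centred but not scaled, so distances tend to be larger for a gene that varies more, such as Tob1. They are therefore not comparable between members. The distances for the other members were 0.0601 and 0.0629 for Cdan1 and Hnrnpu beside Tob2, and 0.0959 and 0.143 for Ranbp17 and Phf8 beside Btg1. They were 0.118 and 0.120 for Arl6ip6 and Rcn2 beside Btg3, 0.156 and 0.180 for Gm44 and Mageb16 beside Btg2, and 0.107 and 0.136 for E330021D16Rik and the deadenylase gene Parn beside Btg4.

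The complex that the family recruits was measured with all 11 of its listed subunits tested. Beside 2.48% of all genes, 0 subunits passed in either direction (limma adjusted p 0.255 or above, and 1 at an unadjusted p below 0.05, where all genes had 18.1%). Their median log2 difference was -0.14, beside -0.093 over all genes, with 5 positive and 6 negative. Cnot7 and Cnot8, the deadenylase subunits that the family binds, were the most abundant of them. Cnot7 stood at 83.5, 79.4 and 68.3 FPKM in DRB and 74.1, 104.2 and 84.8 FPKM in Con. Cnot8 stood at 139.9, 102.4 and 95.6 FPKM in DRB and 187.7, 120.6 and 106.3 FPKM in Con. Both overlapped between the groups, with log2 differences of -0.18 ± 0.27 and -0.27 ± 0.30 (SE). Cnot9, which binds target-specific decay factors, lay lower in every DRB library, at 23.6, 34.8 and 22.1 FPKM against 35.6, 58.3 and 42.8 FPKM in Con (limma adjusted p = 0.255). Cnot6l, a catalytic subunit used in maternal mRNA decay in mouse, lay higher in every DRB library, at 12.3, 12.3 and 8.70 FPKM against 6.47, 6.20 and 5.13 FPKM in Con (limma adjusted p = 0.286). Cnot9 and Cnot6l were singled out after their values were seen.

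Of 11 tested binding partners and kinases of the family, some of which are also in the other lists, 0 passed (limma adjusted p 0.519 or above, and 0 at an unadjusted p below 0.05). Over all genes, 2.48% passed and 18.1% were at an unadjusted p below 0.05. The median of the 11 partners and kinases was -0.18. Eif4e, the cap-binding protein that Btg4 binds, stood at 856.2, 1274 and 1317 FPKM in DRB and 2328, 1389 and 1102 FPKM in Con. Pabpc1, the poly(A)-binding partner of the Tob proteins, stood at 660.0, 357.2 and 421.1 FPKM in DRB and 346.1, 387.4 and 493.8 FPKM in Con. Both overlapped between the groups.

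The 27 tested factors of deadenylation and decay outside CCR4-NOT had a median of -0.02. At an unadjusted p below 0.05 there were 2, both higher, beside 18.1% of all genes in either direction. Past the threshold, 1 was higher and 0 lower, beside 1.53% and 0.95% of all genes. The 1 was Pabpn1, the nuclear poly(A)-binding protein, at 1456, 1883 and 1457 FPKM in DRB and 356.3, 732.8 and 362.3 FPKM in Con (log2 difference 1.80 ± 0.31 SE, limma adjusted p = 0.0168), which passed in 3 of the 6 fits without 1 library. Zfp36l2, which binds AU-rich elements and recruits CCR4-NOT, averaged 20.6 ± 8.42 FPKM in DRB and 6.60 ± 3.82 FPKM in Con (SD, n = 3 each), with no overlap (log2 difference 1.55 ± 0.45 SE, limma adjusted p = 0.0961). It was singled out after its values were seen.

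Tob1, Btg1 and Btg2 respond to growth signals or stress in somatic cells, so genes of those responses were set beside them. Among the immediate early genes 8 of 23 could be tested, with 7 positive and a median of 0.47. Of the 8, 1 passed, higher in DRB, beside the 1.53% of all genes that did so, and 3 were at an unadjusted p below 0.05, all higher, beside 18.1% of all genes in either direction. The 1 was Ier5, at 8.76, 6.55 and 4.00 FPKM in DRB and 0.46, 0.66 and 0.62 FPKM in Con (limma adjusted p = 0.0236). It was below 1 FPKM in every Con library and so entered the test only through DRB, where it was high, and neither its call nor the list's count is read as support. It missed the threshold in all 3 leave-one-out fits that kept it. Dusp1 and Dusp5, the others at an unadjusted p below 0.05, were singled out after their values were seen. Both reached 1 FPKM in Con only in replicate 1, so they too passed the filter only with DRB. Of 20 tested p53 pathway genes 1 passed, higher in DRB, and 0 lower, beside 1.53% and 0.95% of all genes, with 14 positive and a median of 0.36. At an unadjusted p below 0.05 there were 7, 5 higher and 2 lower, beside 18.1% of all genes. Besides the gene that passed, the higher ones were Plk2, Pmaip1, Ppm1d and Plk3, each higher in every DRB library. Their log2 differences were 1.71, 1.11, 1.08 and 0.95, short of the threshold (limma adjusted p 0.0588, 0.2, 0.267 and 0.248). Pmaip1 and Plk3 were under 1 FPKM in Con replicate 2 and passed the filter only with DRB. The count of higher genes is therefore not read as support. The 2 lower were Bax, a promoter of apoptosis, and Phlda3, each lower in every DRB library but short of the threshold (limma adjusted p 0.191 and 0.127). Phlda3 was under 1 FPKM in every DRB library and entered the test only through Con. The gene that passed was Gadd45a, of DNA damage and growth arrest, at 55.9, 32.6 and 21.2 FPKM in DRB and 3.06, 2.99 and 2.47 FPKM in Con (log2 difference 3.19 ± 0.41 SE, limma adjusted p = 0.00407), which passed in all 6 fits without 1 library. Trp53 itself, the gene of p53, stood at 3.37, 4.23 and 3.43 FPKM in DRB and 5.63, 3.95 and 0.67 FPKM in Con. Cdkn1a and Mdm2, also on this list, overlapped between the groups, with log2 differences of 0.27 and 0.33 (limma adjusted p 0.744 and 0.604). Trp53inp1 was higher and Tnfrsf10b lower in every DRB library, both short of the threshold (limma adjusted p 0.375 and 0.536). Trp53, Plk2, Pmaip1, Ppm1d, Plk3, Bax, Phlda3, Cdkn1a, Mdm2, Trp53inp1 and Tnfrsf10b were singled out after their values were seen.

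Of 12 tested G1 cyclins, kinases and inhibitors, through which growth arrest acts in somatic cells, 0 passed (limma adjusted p 0.203 or above), beside 2.48% of all genes. Their median was -0.16. At an unadjusted p below 0.05 there were 2, both higher, beside 18.1% of all genes in either direction. Those 2 were Ccne2, cyclin E2, at 20.6, 16.9 and 17.4 FPKM in DRB and 10.8, 8.53 and 9.61 FPKM in Con, and its kinase partner Cdk2, at 45.7, 38.4 and 37.5 FPKM in DRB and 24.9, 28.7 and 21.3 FPKM in Con. Both were higher in every DRB library and were singled out after their values were seen. The 2 most abundant members were Ccne1 and Cdk4. Ccne1, cyclin E1, stood at 180.7, 113.3 and 93.5 FPKM in DRB and 143.3, 96.3 and 76.0 FPKM in Con, which overlap. Cdk4, the kinase partner of D cyclins, stood at 41.6, 36.6 and 29.9 FPKM in DRB and 64.8, 51.4 and 51.6 FPKM in Con, lower in every DRB library but short of the threshold (limma adjusted p = 0.279). Also lower in every DRB library were E2f4, at 5.88 to 8.11 FPKM against 8.62 to 14.19 in Con, and Ccnd3, at 3.66 to 7.68 FPKM against 8.86 to 10.96 in Con. E2f4 and Ccnd3 were short of the threshold (limma adjusted p 0.369 and 0.322) and were singled out after their values were seen.

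**Figure D4:**
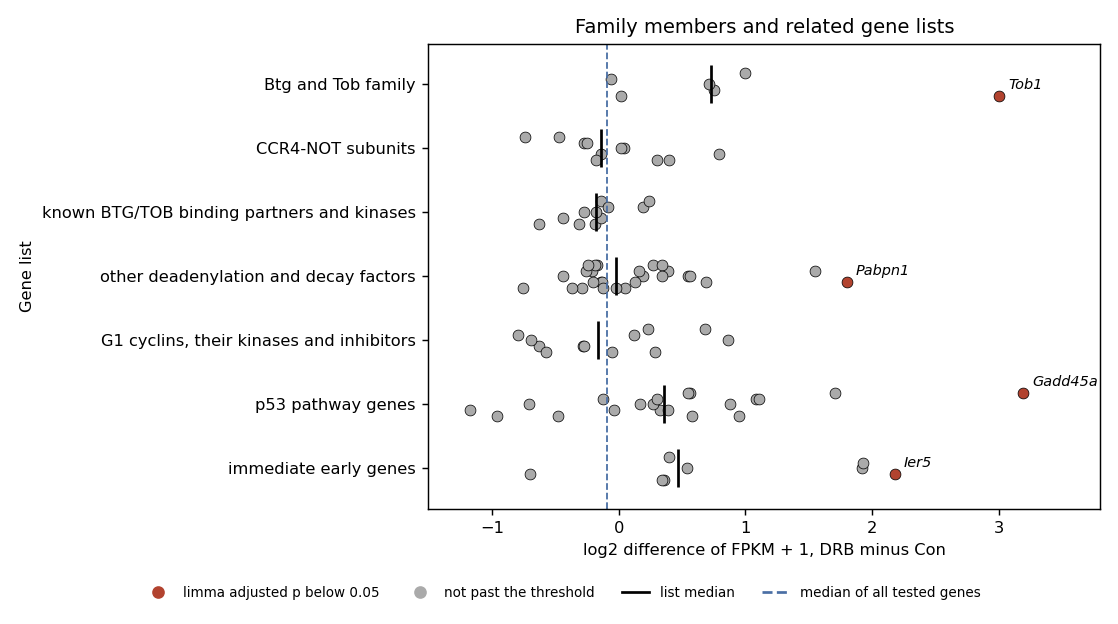
Log2 difference of FPKM + 1, DRB minus Con, for the tested members of the family and of 6 related gene lists, with a bar at each median and a dashed line at the median of all tested genes, -0.093. Tob1, Pabpn1, Gadd45a and Ier5 pass a limma adjusted p of 0.05, and the CCR4-NOT subunits lie between -0.74 and 0.79.

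Markers of other cells were checked, and 0 of the 9 that could be tested passed (limma adjusted p 0.269 or above, and 1, lower in DRB, at an unadjusted p below 0.05). Over all genes, 2.48% passed and 18.1% were at an unadjusted p below 0.05. Of 13 cumulus cell markers 2 were tested, Gja1 and Amhr2, which embryos may also express, and 5 were listed at 0 in all libraries, among them Amh, Fshr and Cyp19a1. Their summed level was 145 to 276 FPKM in DRB and 213 to 387 FPKM in Con. For 9 sperm markers it was 12.5 to 24.2 FPKM in DRB and 12.7 to 22.7 FPKM in Con, almost all Ldhc and Odf2. For 9 blood cell markers it was 47.6 to 90.2 FPKM in DRB and 77.3 to 122 FPKM in Con, mostly Hba-a1 and Hba-a2. The groups overlapped in each of these summed levels. Single markers that were higher in every DRB library were Odf2, at 5.24 to 8.12 FPKM in DRB and 3.61 to 4.70 FPKM in Con, and Ptprc, at 0.17 to 0.21 FPKM in DRB and 0.03 to 0.15 FPKM in Con. Odf2 and Ptprc were singled out after their values were seen. The part of other cells in the differences of the family members was not tested.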

How the data were processed

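RNA was amplified by Smart-Seq2 with an oligo-dT primer and sequenced as paired ends, per the labels' protocols, so a change of poly(A) tail and a change of amount cannot be told apart. Cutadapt 1.16, STAR and mm10 are credited to the submitters' processing notes, and what computed the values is not stated. The authors deposited FPKM per gene and library, per the file headers. Fragments were estimated from the steps of low FPKM values of genes with 1 transcript, with a fitted subtraction of 160 to 190 bases from the length, and 70.8% to 81.8% of those values came within 0.15 of a whole number. Of 55335 gene IDs, 55154 matched GENCODE M21.

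All genes were fitted on log2(FPKM + 1) with limma 3.58.1 (R 4.3.3), with a mean-variance trend, two-sided, Benjamini-Hochberg adjusted over 11893 genes. Members, lists and tests were chosen with earlier results of these data known. Named list genes were the called members (at most 2 each way) or else the 2 most abundant, and others are said to be chosen after their values were seen. P-values reflect the spread of these libraries alone, and that spread may be technical. Promoters came from RefSeq, and other sequences and coordinates from GENCODE (GRCm38, the assembly of mm10). Alignments used Biopython 1.88 with BLOSUM62.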

Additional observations from a re-analysis of the deposited data

How the results depend on the processing

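The 295 calls over all genes (182 higher, 113 lower) became 6 (6 and 0) when low values were not filtered, 164 (113 and 51) at a pseudocount of 0.1, 50 (43 and 7) at adjusted p below 0.01, and 171 (127 and 44) with the replicate block. With mitochondrial genes left out 72 were lower. Without 1 library 47 to 220 were called, 34 to 139 higher and 13 to 81 lower, the fewest without DRB replicate 1. The cause of these shifts was not tested. The replicate block ended no call of a family member: Tob1 passed with it (limma adjusted p = 0.00851, SE 0.36). Each replicate number occurs once per group, so the block could change only SE and p-values. The log2 difference of 3.00 was bound to stay the same. Libraries with the same number had deviations that correlated at -0.051 to 0.053, and no source says what the numbers mark. Over the alternatives that could be fitted, log2 differences were 2.75 to 3.26 for Tob1, 0.57 to 1.00 for Tob2, 0.42 to 1.09 for Btg1, -0.49 to 0.35 for Btg2, 0.76 to 1.17 for Btg3 and -0.25 to 0.33 for Btg4. Tob2 and Btg2 were not tested at a minimum of 5 FPKM. Of 148 values of single members and lists under alternatives, 144 stayed within the limit for no change. That limit was the spread between replicates for members and 0.25 for list medians, and counts of list calls at 0.01 had a limit of their own. Many values could not move. The block leaves members and list medians as they are, and the filters leave the members as they are. The 144 is therefore not read as a measure of robustness. The exceptions were the medians of the immediate early genes (0.75 without DRB replicate 2) and the p53 pathway genes (0.61 without Con replicate 1), and the calls of Ier5 and Pabpn1, lost at 0.01. With 3 libraries per group, small differences such as those of Tob2 and Btg1 cannot be told from the spread between libraries.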
